A study of Homo sapiens with 4 samples.

Results

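The genes described here are 10 genes of the G1 cell cycle machinery, the D cyclins CCND1 and CCND3, the E cyclins CCNE1 and CCNE2, the kinases CDK2, CDK4 and CDK6, and the CIP/KIP inhibitors CDKN1A (p21), CDKN1B (p27) and CDKN1C (p57). They were chosen by symbol, with earlier results of these data known, and each matched exactly 1 of the 48162 genes in the deposited table. All 10 passed the limit for testing, a mean over the 4 libraries of at least 1 FPKM, a read density corrected for the length of the gene and the depth of the library. CCNE2 passed it through its vehicle values alone, since both of its MGH-CP1 values lay under 1 FPKM. RNA was sequenced from the established human line MDA-MB-231, which derives from a triple-negative breast cancer. Cells were exposed for 24 h to vehicle (2 libraries) or to 10 µM MGH-CP1 (2 libraries), a compound that the series title calls a TEAD palmitoylation inhibitor, and the comparison asked how transcript levels differed between them. All libraries are of 1 cell line at 1 time and 1 dose, the labels name no separate cultures, and the spread behind the p-values may therefore be technical.

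D cyclins bind CDK4 and CDK6 in response to growth signals, and the complexes phosphorylate the retinoblastoma protein RB. Phosphorylated RB releases E2F factors, which drive transcription of genes for DNA replication and of the E cyclins. Cyclin E with CDK2 phosphorylates RB further and starts S phase. The CIP/KIP proteins bind cyclin-CDK complexes and block CDK2, and they also help to assemble cyclin D with CDK4 or CDK6. The other inhibitor family, INK4, binds CDK4 and CDK6 alone, and MDA-MB-231 is known to have lost the CDKN2A and CDKN2B genes of that family.

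Reads over all listed genes numbered 16790645 to 18485701 per library. Of 11790 genes tested, limma called 2355 higher (20.0%) and 2956 lower (25.1%) with MGH-CP1 at an adjusted p under 0.05, and the higher count was 1524 without MGH-CP1 replicate 1 and 1460 without MGH-CP1 replicate 2. Scaling turned the balance of these counts, to 2845 higher and 2463 lower with libraries centred on their median and 2803 higher and 2590 lower with quantile normalization. The TEAD target genes CYR61 and CTGF stood at 232 ± 5.08 and 33.3 ± 1.37 FPKM in vehicle and at 59.5 ± 4.37 and 12.1 ± 1.37 FPKM with MGH-CP1 (mean ± SD, n = 2 libraries per group, as throughout for FPKM). Log2 differences and fold changes are given ± the standard error (SE) of the fit. All 6 genes fixed as marks of this line were detected at 28.5 FPKM or more in every library, and 2 of them rose and 3 fell. Among the latter the proliferation marker MKI67 went from 80.5 ± 6.70 to 30.3 ± 2.53 FPKM (a log2 difference of -1.38 ± 0.08, with limma adjusted p = 4.19e-05), and its part in the changes of the 10 genes was not tested. Of 6 luminal and receptor genes ESR1 and PGR stayed under 0.1 FPKM and FOXA1 and CDH1 under 1 FPKM, whereas EPCAM lay at 7.91 to 9.95 FPKM and ERBB2 at 24.5 to 26.3 FPKM. Of 10 markers of immune, endothelial and fibroblast cells 5 stayed under 0.1 FPKM in every library, and their summed level was 8.34 to 10.3 FPKM in vehicle and 8.76 to 9.32 FPKM with MGH-CP1. None of the 4 tested was called by limma, also at an unadjusted p, and voom called 1, PDGFRB, which stood at 0.984 and 1.28 FPKM in vehicle and 1.58 and 1.59 FPKM with MGH-CP1.

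Reference sequence upstream of 6 members was used, from RefSeq on GRCh38.p14. It was read as 9 windows from 250 bases before to 50 bases after an annotated start. No window was used for CCND1, CCNE2, CDK2 and CDKN1C, so the counts of windows do not cover these members. Windows are shown for CCNE1, CDK4, CDKN1A and CCND3. Among the 6 members whose windows were used, CCNE1 fell most and CDK4 was the kinase with the most E-boxes. CDKN1A was the most abundant inhibitor, and CCND3 had the only one of the 9 windows with a TEAD motif. Capitals mark TCCCGC or its reverse complement GCGGGA, the core bound by E2F factors, in CCNE1 and CDKN1A, the E-box CACGTG, the site of MYC and related factors, in CDK4, and CATTCC, the reverse complement of the TEAD motif GGAATG, in CCND3. All were read 5′ to 3′ on the strand of the gene. The CCNE1 window lies at chr19:29811741-29812040 (plus strand), that of CDK4 at chr12:57752261-57752560 (minus strand), that of CDKN1A at chr6:36678464-36678763 (plus strand) and that of CCND3 at chr6:41941759-41942058 (minus strand).
CCNE1: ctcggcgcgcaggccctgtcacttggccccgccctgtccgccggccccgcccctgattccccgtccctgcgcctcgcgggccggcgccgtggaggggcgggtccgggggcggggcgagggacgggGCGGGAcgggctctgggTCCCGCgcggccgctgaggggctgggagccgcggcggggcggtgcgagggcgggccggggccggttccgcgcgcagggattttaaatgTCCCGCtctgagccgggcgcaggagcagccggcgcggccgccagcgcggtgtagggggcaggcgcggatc
CDK4: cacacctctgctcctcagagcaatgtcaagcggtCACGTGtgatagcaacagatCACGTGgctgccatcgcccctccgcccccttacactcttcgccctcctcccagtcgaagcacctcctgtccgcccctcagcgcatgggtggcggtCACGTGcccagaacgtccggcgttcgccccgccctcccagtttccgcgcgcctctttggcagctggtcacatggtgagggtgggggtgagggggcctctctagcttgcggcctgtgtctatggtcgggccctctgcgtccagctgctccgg
CDKN1A: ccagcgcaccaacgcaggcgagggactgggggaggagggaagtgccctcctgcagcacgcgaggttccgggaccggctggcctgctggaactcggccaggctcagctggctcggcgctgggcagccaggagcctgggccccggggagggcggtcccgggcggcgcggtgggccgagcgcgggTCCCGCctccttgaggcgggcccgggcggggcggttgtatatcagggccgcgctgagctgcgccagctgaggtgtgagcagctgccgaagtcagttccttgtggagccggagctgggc
CCND3: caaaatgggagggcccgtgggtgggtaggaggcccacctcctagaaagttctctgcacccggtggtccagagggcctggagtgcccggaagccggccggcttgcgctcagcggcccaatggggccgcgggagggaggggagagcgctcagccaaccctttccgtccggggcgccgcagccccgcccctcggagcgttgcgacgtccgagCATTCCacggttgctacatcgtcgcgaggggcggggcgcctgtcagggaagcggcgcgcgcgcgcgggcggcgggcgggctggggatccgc

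The CCNE1 window held 3 matches to the E2F core, which began 125, 108 and 20 bases before the start. CDKN1A held 1, beginning 68 bases before its start. Searched on both strands, the E2F core was present in 5 of the 9 windows and in 26.9% of all 35116 RefSeq windows. The E-box was present 3 times in CDK4 and once in 1 of the 2 CDK6 windows, which makes 2 of the 9 windows against 7.26% of all windows. The TEAD motif GGAATG was present in 1 of the 9 windows, a CCND3 window in which it began 41 bases before the start, and in 14.0% of all windows. GC boxes (GGGCGG or CCGCCC), the sites of SP1, were present in 7 of the 9 windows and in 45.0% of all windows, and 1 of them overlaps the E2F core that begins 125 bases before the CCNE1 start. These matches describe the letters and were not tested for binding.

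With MGH-CP1 all 7 cyclin and kinase genes fell, 2 of the 3 CIP/KIP inhibitor genes rose, and the third, CDKN1B, did not pass the test (limma, adjusted p under 0.05 over 11790 genes). The E cyclins and CDK2 fell most, CCNE2 from 3.63 ± 0.837 to 0.491 ± 0.0564 FPKM, CCNE1 from 6.32 ± 0.198 to 1.75 ± 0.400 FPKM and CDK2 from 10.6 ± 1.29 to 4.36 ± 0.664 FPKM. The D cyclins, their kinases and CDKN1A changed by smaller factors from higher levels. CDKN1C went the other way, from 3.90 ± 0.634 to 9.59 ± 0.471 FPKM. The share of members called, 7 of 10 lower and 2 of 10 higher, stands beside 25.1% lower and 20.0% higher among all tested genes. The 7 include CCNE2, which entered the test through its vehicle values alone. The members were chosen with earlier results of these data known. On recovered reads voom also called 7 members lower and 2 higher, beside 26.7% lower and 22.1% higher among the tested genes. The median log2 fold change was -0.58 for the 7 cyclins and kinases and 0.43 for the 3 inhibitors, against -0.02 for all tested genes. In each of the 10 members the MGH-CP1 and vehicle values did not overlap, as in 74.1% of all tested genes (39.4% lower, 34.7% higher). Levels are shares of a library made from many cells, and cell cycle phase was not measured. A change in transcripts per cell and a change in the share of cells in a given cycle phase therefore cannot be told apart.

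**Figure D1:**
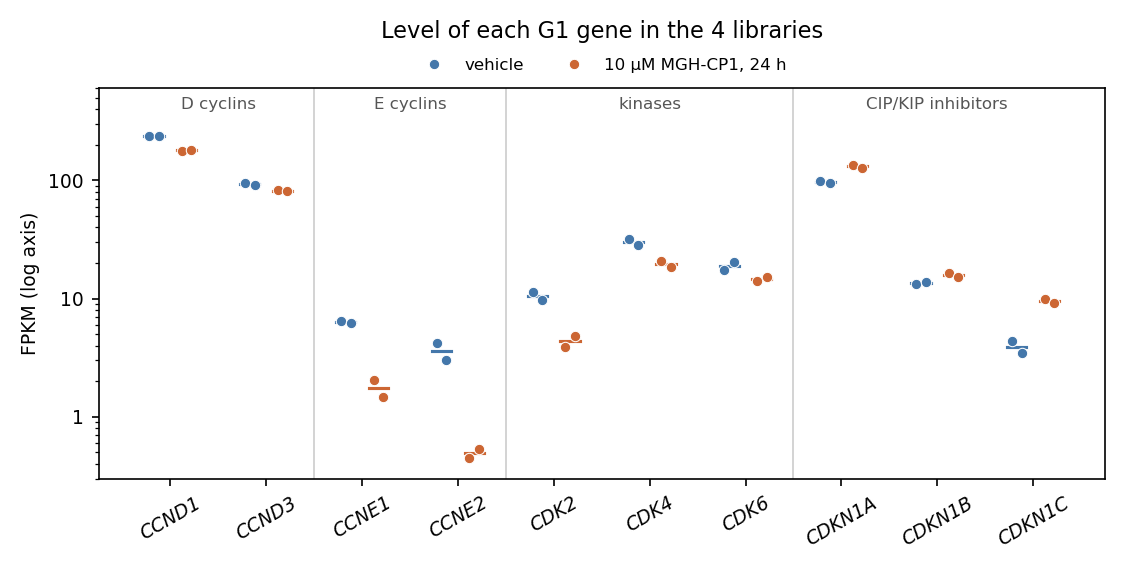
Level of each of the 10 genes in FPKM on a log axis, with 1 point per library (blue, vehicle; orange, 10 µM MGH-CP1 for 24 h) and a bar at the mean of the 2 libraries. The orange points lie below the blue ones for all 7 cyclins and kinases and above them for all 3 inhibitors, with the widest gap at CCNE2.

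Cyclin E activates CDK2, and its genes are textbook E2F targets. CCNE1 (ENSG00000105173, hg19 chromosome 19, 30302805 to 30315215, plus strand) stood at 6.46 and 6.18 FPKM in the vehicle libraries and at 2.04 and 1.47 FPKM in the MGH-CP1 libraries. Both treated values lay far below both vehicle values, by several times the gap within either group. The log2 fold change was -1.42 ± 0.12 (SE; limma, adjusted p = 0.000154), on the log2(FPKM + 1) scale, which understates changes of genes at low levels. On reads recovered from the FPKM values it was -1.86 ± 0.20 (voom, adjusted p = 4.91e-06), from 244 and 212 reads in vehicle and 72 and 51 with MGH-CP1.

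CCNE2, the second cyclin E gene (ENSG00000175305, hg19 chromosome 8, 95891998 to 95908906, minus strand), stood at 4.22 and 3.04 FPKM in vehicle and at 0.451 and 0.531 FPKM with MGH-CP1. Its mean was the lowest among the 10 genes in both groups, although its vehicle values overlapped those of CDKN1C. The CCNE2 values rested on 260 and 170 reads in vehicle and on 26 and 30 with MGH-CP1. The ratio of mean FPKM was 7.39-fold lower with MGH-CP1. The fitted log2 fold change was -1.62 ± 0.15 on the log2(FPKM + 1) scale (limma, adjusted p = 0.000214) and -2.86 ± 0.30 on recovered reads (voom, adjusted p = 5.12e-06). On the log2(FPKM + 1) scale 0.365% of tested genes had as low a change as CCNE2 or a lower one, and 0.746% had as low a change as CCNE1. CCNE2 entered the test through its vehicle values alone, so its p-values and rank are not independent of its fall. CCNE2 overlaps NDUFAF6 and INTS8 on the opposite strand, at means of 4.07 and 7.45 FPKM, and the use of strand in counting is not given in the sources used here, so its value is uncertain.

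CDK2, the kinase partner of cyclin E (ENSG00000123374, hg19 chromosome 12, 56360553 to 56366568, plus strand), stood at 11.5 and 9.65 FPKM in vehicle and at 3.89 and 4.83 FPKM with MGH-CP1. Both treated values lay below both vehicle values by more than the gap within either group, and the log2 fold change was -1.11 ± 0.12 (limma, adjusted p = 0.000371). PMEL spans the whole of CDK2 on the opposite strand and averaged 0.250 FPKM.

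The D cyclins were among the most abundant members and fell by less. CCND1, the growth factor-regulated cyclin often overexpressed in breast cancer (ENSG00000110092, hg19 chromosome 11, 69455855 to 69469242, plus strand), had the highest level of the 10 in both groups. It stood at 239 and 238 FPKM in vehicle and at 178 and 180 FPKM with MGH-CP1. The gap between the groups was many times that between the libraries of either group. The log2 fold change was -0.41 ± 0.05 (limma, adjusted p = 0.00101), and 15.1% of tested genes had as low a change. CCND1 overlaps ORAOV1 on the opposite strand, which averaged 2.82 FPKM.

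CCND3, the D cyclin best known from lymphoid cells (ENSG00000112576, hg19 chromosome 6, 41902671 to 42018095, minus strand), stood at 95.2 and 92.0 FPKM in vehicle and at 82.0 and 80.6 FPKM with MGH-CP1. The groups did not overlap, but the difference was small, at -0.20 ± 0.05 on the log2 scale (limma, adjusted p = 0.0204). The call was lost in 5 of 13 alternatives, among them without MGH-CP1 replicate 1 (adjusted p = 0.118), without MGH-CP1 replicate 2 (adjusted p = 0.159) and with libraries centred on their median (log2 fold change -0.15; adjusted p = 0.0725). Another D cyclin gene, CCND2, averaged 0.276 FPKM in vehicle and 0.225 FPKM with MGH-CP1 and lay below the limit for testing.

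CDK4 and CDK6 encode the kinases that D cyclins activate. CDK4 (ENSG00000135446, hg19 chromosome 12, 58141510 to 58149796, minus strand) stood at 31.7 and 28.4 FPKM in vehicle and at 20.9 and 18.6 FPKM with MGH-CP1, which is a log2 difference of -0.58 ± 0.08 (limma, adjusted p = 0.00126). The treated libraries were both below the vehicle ones by more than the gap within either group. CDK4 overlaps TSPAN31 on the opposite strand over 2485 bases, and TSPAN31 stood at 4.17 and 4.25 FPKM in vehicle and at 7.80 and 7.23 FPKM with MGH-CP1, so reads of the pair may not be told apart. CDK6 (ENSG00000105810, hg19 chromosome 7, 92234235 to 92465908, minus strand) stood at 17.5 and 20.3 FPKM in vehicle and at 14.1 and 15.1 FPKM with MGH-CP1. Its groups did not overlap, but they were separated by less than the gap between its vehicle libraries. The log2 fold change was -0.35 ± 0.09 (limma, adjusted p = 0.0144), and the call was lost without MGH-CP1 replicate 1 (adjusted p = 0.0882) and with no filter on low values (adjusted p = 0.0842).

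**Figure D2:**
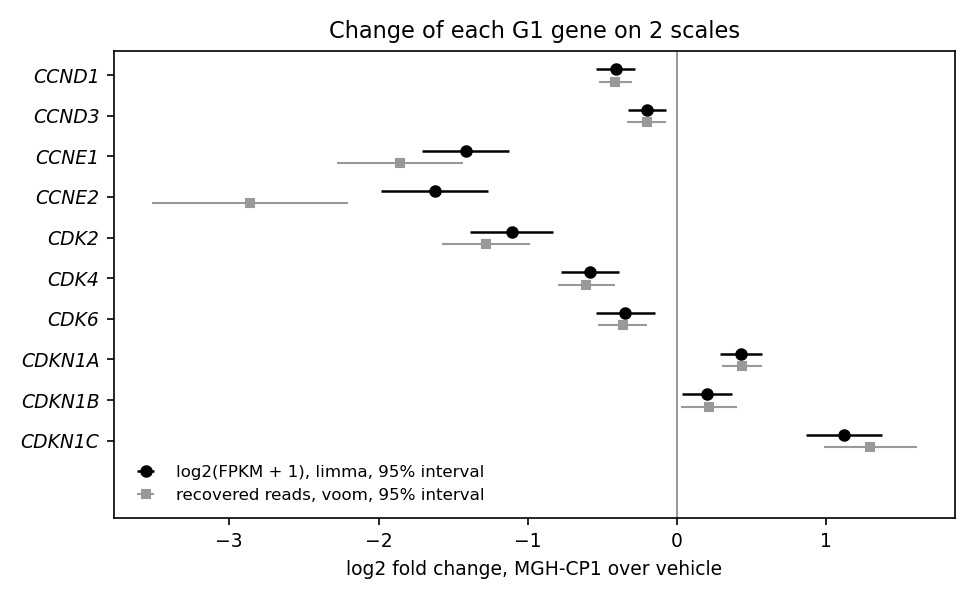
Log2 fold change of MGH-CP1 over vehicle for each gene, fitted on log2(FPKM + 1) with limma (black circles) and on recovered reads with voom (grey squares), with 95% intervals. The scales differ most for the low genes CCNE2 (-1.62 and -2.86) and CCNE1 (-1.42 and -1.86) and little for genes at higher levels such as CCND1 (-0.41 on both).

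Among the CIP/KIP inhibitors CDKN1A and CDKN1C rose. CDKN1A, which encodes p21 (ENSG00000124762, hg19 chromosome 6, 36644305 to 36655116, plus strand), was the most abundant of them. It stood at 99.1 and 95.1 FPKM in vehicle and at 135 and 127 FPKM with MGH-CP1. Both treated libraries exceeded both vehicle libraries by more than the gap within either group, and the log2 fold change was 0.43 ± 0.06 (limma, adjusted p = 0.00125). Its rise was matched or exceeded by 10.0% of tested genes.

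CDKN1C, an imprinted gene that encodes p57 and restrains growth in the embryo (ENSG00000129757, hg19 chromosome 11, 2904443 to 2907111, minus strand), stood at 4.35 and 3.46 FPKM in vehicle and at 9.92 and 9.26 FPKM with MGH-CP1. The groups were far apart relative to the gap within either, on 165 and 119 reads in vehicle and 352 and 322 with MGH-CP1. The log2 fold change was 1.12 ± 0.11 (limma, adjusted p = 0.000241), and 0.653% of tested genes rose as much or more. No gene in the deposited table overlaps CDKN1A, CDKN1B, CDKN1C or CCNE1.

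CDKN1B, which encodes p27 (ENSG00000111276, hg19 chromosome 12, 12867992 to 12875305, plus strand), stood at 13.3 and 13.9 FPKM in vehicle and at 16.4 and 15.1 FPKM with MGH-CP1. The groups did not overlap, but the gap between them was smaller than that between the treated libraries. The log2 difference of 0.20 ± 0.07, with a 95% interval of 0.03 to 0.37, did not pass (limma, adjusted p = 0.0560). It passed in 4 of 13 alternatives, among them without vehicle replicate 2 (adjusted p = 0.0393) and with libraries centred on their median (log2 difference 0.25; adjusted p = 0.0231), and its adjusted p ranged from 0.0231 to 0.335 over the 13.

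Ordered by level, the vehicle libraries ran CCND1, CDKN1A, CCND3, CDK4, CDK6, CDKN1B, CDK2, CCNE1, CDKN1C and CCNE2. Neighbours overlapped in the pair CDKN1A and CCND3, at 97.1 ± 2.76 and 93.6 ± 2.26 FPKM, and in the pair CDKN1C and CCNE2, at 3.90 ± 0.634 and 3.63 ± 0.837 FPKM. With MGH-CP1 CDKN1A stood clear of CCND3, at 131 ± 5.96 against 81.3 ± 0.961 FPKM. CDKN1B, at 15.8 ± 0.916 FPKM, came before CDK6, at 14.6 ± 0.682 FPKM, although the values of both in MGH-CP1 replicate 2 round to 15.1 FPKM. CDKN1C stood ahead of CDK2 and both E cyclins there. No neighbours overlapped in the MGH-CP1 libraries.

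Summed by role, cyclin mRNA was lower and CIP/KIP inhibitor mRNA higher with MGH-CP1. The INK4 inhibitors are not part of these sums. With 2 libraries per group the smallest two-sided exact permutation p is 0.333, so sums and ratios are described without a test. CCND1 and CCND3 together stood at 334 and 330 FPKM in vehicle and at 260 FPKM in both MGH-CP1 libraries. CCNE1 and CCNE2 together stood at 10.7 and 9.22 FPKM in vehicle and at 2.49 and 2.00 FPKM with MGH-CP1, a 4.43-fold lower mean against 1.28-fold for the D cyclins. The treated libraries were lower in both sums, and the ratio of D to E cyclin levels was 31.3 and 35.8 in vehicle and 105 and 130 with MGH-CP1.

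The 3 inhibitors together stood at 117 and 113 FPKM in vehicle and at 162 and 151 FPKM with MGH-CP1. The 7 cyclins and kinases together stood at 405 and 398 FPKM in vehicle and at 302 and 301 FPKM with MGH-CP1. The ratio of inhibitor to cyclin and kinase levels was thus 0.288 and 0.283 in vehicle and 0.536 and 0.503 with MGH-CP1. This ratio mostly reflects CDKN1A and CCND1, since CCND1 made up most of the cyclin and kinase sum. The ratio of CDKN1A to CCND1 alone was 0.415 and 0.400 in vehicle and 0.759 and 0.706 with MGH-CP1. Most of the CIP/KIP mRNA was CDKN1A in every library, 84.9% and 84.6% in vehicle and 83.7% and 83.9% with MGH-CP1. The share of CDKN1C went from 3.73% and 3.07% to 6.14% and 6.12%, and that of CDKN1B from 11.4% and 12.4% to 10.1% and 9.99%. Against the E cyclins and CDK2 alone, the inhibitor sum was 5.26 and 5.96 times as high in vehicle and 25.3 and 22.1 times with MGH-CP1.

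**Figure D3:**
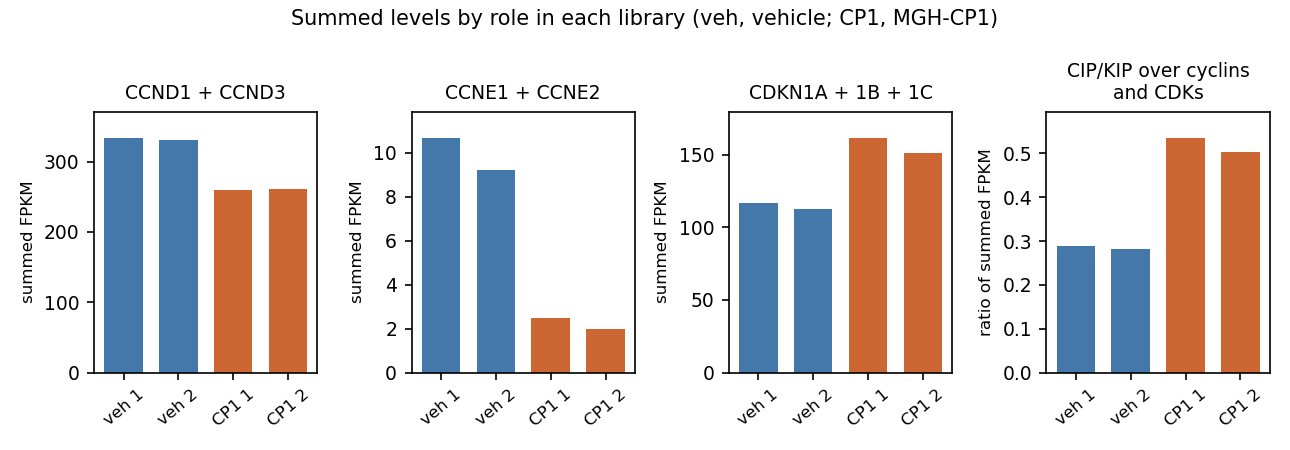
Summed FPKM of D cyclins, E cyclins and CIP/KIP inhibitors, and the ratio of the inhibitor sum to the sum of the 7 cyclins and kinases, as 1 bar per library (blue, vehicle; orange, MGH-CP1). The ratio is 0.288 and 0.283 in vehicle and 0.536 and 0.503 with MGH-CP1.

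Ratios within families also differed between libraries of the 2 groups. The CCND1 to CCND3 ratio was 2.51 and 2.59 in vehicle and 2.17 and 2.23 with MGH-CP1. The CCNE1 to CCNE2 ratio was 1.53 and 2.03 in vehicle and 4.51 and 2.77 with MGH-CP1, where the treated values rest on 72 and 51 reads of CCNE1 and 26 and 30 of CCNE2. The CDK4 to CDK2 ratio was 2.76 and 2.95 in vehicle and 5.36 and 3.85 with MGH-CP1. The groups did not overlap in these 3 ratios, whereas the CDK4 to CDK6 ratio, 1.82 and 1.40 in vehicle and 1.48 and 1.23 with MGH-CP1, overlapped between them.

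The members were set beside further cell cycle genes from lists drawn up by function, with earlier results of these data known. The counts of each list, here and below, stand beside 20.0% called higher and 25.1% called lower among all tested genes. Of 15 other cyclins, CDKs and inhibitors 11 were tested, of which 3 rose, 4 fell and 4 did not pass. CCNA2, the cyclin that takes over CDK2 in S phase, fell from 73.1 ± 4.75 to 29.2 ± 1.62 FPKM, and CDKN2C, an INK4 inhibitor, fell from 24.6 ± 1.67 to 15.0 ± 0.250 FPKM. The cyclin G genes CCNG1, from 23.2 ± 0.0920 to 29.3 ± 1.01 FPKM, and CCNG2, from 8.54 ± 0.443 to 11.4 ± 0.612 FPKM, rose. CDKN2A had 2 reads in vehicle replicate 1 and 0 in the other 3 libraries, and CDKN2B, named after its values were seen, had 0 in all 4.

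Enzymes that set CDK phosphorylation went mostly down. Of 10 genes of the CDK-activating kinase, the CDC25 phosphatases, the inhibitory kinases and CDK4 chaperones 7 fell, 1 rose and 2 did not pass. CDC25A, the phosphatase that activates cyclin E-CDK2, fell from 14.5 ± 0.289 to 2.63 ± 0.0910 FPKM (a log2 difference of -2.10 ± 0.08, with limma adjusted p = 1.15e-05). On the log2(FPKM + 1) scale this was a larger fall than that of any member. By the ratio of mean FPKM CCNE2 fell more, 7.39-fold against 5.53-fold for CDC25A. PKMYT1, which inhibits CDK1, fell from 17.1 ± 2.50 to 4.96 ± 0.0687 FPKM. CDC25B, a phosphatase of mitotic entry, rose from 56.2 ± 2.80 to 68.0 ± 1.86 FPKM.

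Of 13 genes of the RB family and of E2F and DP factors 10 fell and 0 rose with limma, and the count of rises was also 0 at an unadjusted p under 0.05 and with voom, with a median log2 fold change of -0.51. E2F1, an activator of S phase genes, fell from 67.5 ± 3.23 to 16.5 ± 1.65 FPKM, and E2F8, a repressor in the same family, from 6.78 ± 0.402 to 1.60 ± 0.263 FPKM. RB1 itself fell from 20.7 ± 0.0411 to 17.3 ± 0.188 FPKM (limma, adjusted p = 0.0127). All 30 S phase genes fell, with a median of -1.61, among them MCM10, from 11.6 ± 0.218 to 1.44 ± 0.164 FPKM. Falls of CCNE1, CCNE2 and CDK2 thus stood beside falls of the S phase genes, and the part of cell cycle phase in them was not tested.

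Genes that control the turnover of cyclins and inhibitors were lower or did not pass. Of 18 tested 11 fell and 0 rose with limma, and the count of rises was also 0 at an unadjusted p under 0.05 and with voom. SKP2, the receptor that targets p27 for degradation, fell from 9.78 ± 0.743 to 3.26 ± 0.166 FPKM. DTL, which directs p21 to degradation on PCNA in S phase, fell from 18.8 ± 0.435 to 3.70 ± 0.566 FPKM, and PCNA from 89.8 ± 2.83 to 26.4 ± 2.80 FPKM. Protein levels were not measured.

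Textbook regulators of CCND1, CDKN1A and CDKN1B went both ways, with 5 of 15 higher, 6 lower and 4 that did not pass. FOXO1, a factor that induces CDKN1B, rose from 1.51 ± 0.184 to 2.60 ± 0.0504 FPKM, and KLF6, which can induce CDKN1A, from 61.2 ± 6.35 to 88.5 ± 2.05 FPKM. FOSL1, an AP-1 subunit linked to CCND1 expression, fell from 210 ± 19.6 to 79.7 ± 3.60 FPKM. FOXO1, KLF6 and FOSL1 had the largest called rises and the largest called fall of this list. CTNNB1 and SMAD3 of the same list were named after their values were seen. CTNNB1 rose from 172 ± 0.684 to 244 ± 7.59 FPKM, and SMAD3 fell from 71.3 ± 1.24 to 61.7 ± 0.881 FPKM. The part of any of these regulators in the changes of the members was not tested.

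**Figure D4:**
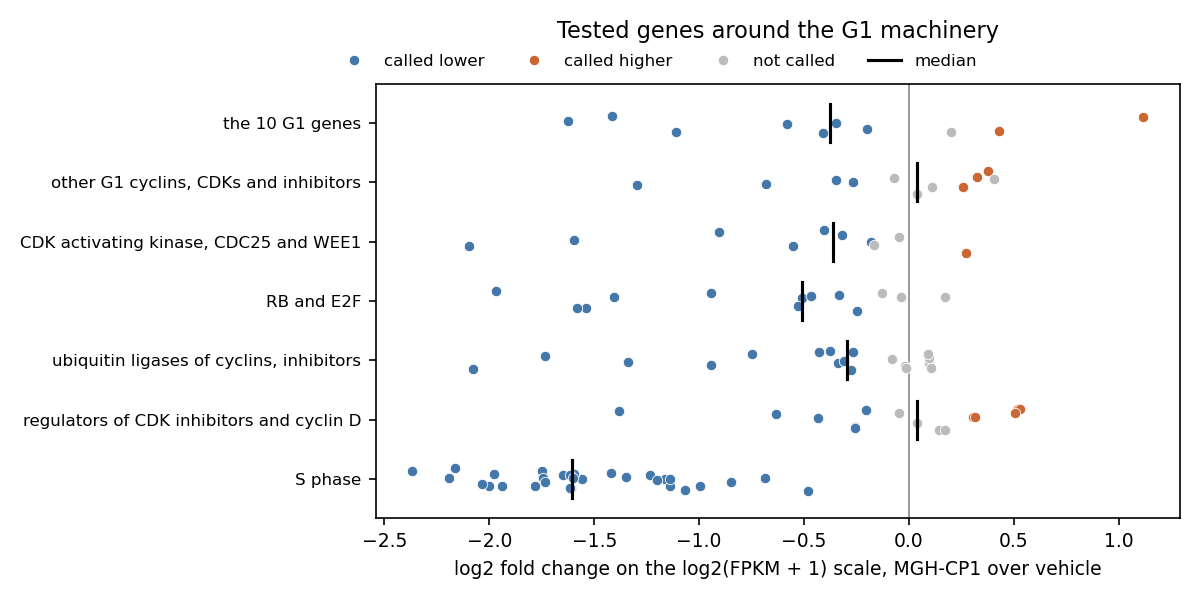
Log2 fold change on the log2(FPKM + 1) scale of the 10 members and of tested genes in 6 lists around them, with 1 point per gene (blue, called lower; orange, called higher; grey, not called) and a black line at each median. The S phase list has its median at -1.61 and no point above 0, whereas the members spread from -1.62 (CCNE2) to 1.12 (CDKN1C).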

How the data were processed

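RNA was sequenced from 4 libraries of MDA-MB-231 cells, 2 per group. Per the submitters' processing notes, the software was CASAVA 1.8 and the aligner STAR, on hg19. The annotation, the counter and its strand setting were not given in the sources used here. The authors deposited 1 table of FPKM values for 48162 genes. FPKM times gene length was a whole multiple of 1 step in every library (100% of values above 0 within 0.001), and these multiples were taken as reads. They totalled 18485701 and 16790645 in vehicle and 17295817 and 16960448 with MGH-CP1, so that 1 read per kb equals 0.0541 to 0.0596 FPKM.

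Values of genes that averaged 1 FPKM or more were fitted as log2(FPKM + 1) with limma 3.58.1 in R 4.3.3, with group as the only term and a mean-variance trend, and Benjamini-Hochberg adjustment over 11790 genes. The fit was tested on simulated data. Tables and plots used Python 3.11.15, pandas 2.3.3, numpy 2.4.6 and matplotlib 3.10.9. Members and lists were chosen with earlier results of these data known. Of 130 list entries 129 were matched, repeated symbols by the row with the highest mean. Named beside the members were 10 fixed genes and, per list, the 2 largest called rises and falls, of which those the results turn on are printed, and 1 of them is not reported here. Coordinates are hg19 except the RefSeq windows (GRCh38.p14). The 13 alternatives changed the pseudocount, filter, scaling, trend, unit or libraries.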

Additional observations from a re-analysis of the deposited data

How the results depend on the processing

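All 10 members kept the sign of their change under every alternative that tested them. CCND1, CDK2, CDK4, CDKN1A and CDKN1C kept their call in all 13, and CCNE1 and CCNE2 in the 12 that tested them, since neither reached a mean of 5 FPKM. CCND3 lost its call in 5, CDK6 lost it in 2 and CDKN1B gained one in 4. The count of genes called higher, 2355, was 1568 with no filter on low values. Leaving out 1 library at a time gave 1460 to 2556 genes called higher, 2052 to 3087 called lower, 2 to 3 members called higher and 5 to 7 called lower. A lone library is then assumed to vary like the other group. The labels do not say whether same-numbered libraries were paired. The correlation of same-numbered deviations across genes was 0.05, which cannot exclude pairing with so few libraries. With the replicate block 2453 genes were called higher and 3036 lower, with 2 members higher and 7 lower. Centring on the median moved the difference between groups by 0.05 on the log2 scale. Depth limits CCNE2 most, with 26 and 30 reads in the MGH-CP1 libraries.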
